A study of Drosophila melanogaster with 4 samples.

Results

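The X chromosome held 214 of the 1929 Eip74EF-GFP peaks that the authors called across the fly genome, and the account below follows those 214 peaks along the chromosome. They were chosen by position alone, as every peak placed on X and not on the heterochromatic scaffold XHet. ChIP-seq, the sequencing of DNA that is precipitated with a protein bound to it, was done on 8 to 16 h embryos of the Drosophila melanogaster strain Eip74EF-GFP. The genotype was PBac{y[+]-attP-3B}VK00037, with a transgene of the Eip74EF genomic coding region. All libraries came from this 1 strain. They comprised 2 precipitated samples (ChIP, rabbit antibody ab290 against GFP) and 2 samples of input DNA. The collection protocol in the labels names y; bw cn sp flies, and the sources used here do not say how these relate to the tagged strain. The labels do not give the sex of the embryos or the state of the native Eip74EF gene.

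Eip74EF is an early-response gene of the steroid hormone ecdysone. It encodes transcription factors of the ETS family, which bind DNA through a winged helix domain that recognises sites with a GGA core. Ecdysone is best known for driving moulting and metamorphosis, and a pulse of it also occurs in the embryo, where it is needed for later morphogenesis. The X chromosome of the fly is present as a pair in females and singly in males, in which most of its genes are transcribed at a raised rate.

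Peak positions follow release 5 of the fly genome. Each peak carries 1 score from the authors' peak caller, on a scale that is not given in the sources used here, and the score is used only to rank peaks within the list. Since no value is given per library, the depth is unknown, no value below has an error between replicates, and no test over samples was possible. Values are therefore descriptions of this 1 list. The libraries included no anti-GFP precipitation of untagged embryos, so binding of the tagged protein and precipitation unrelated to it cannot be told apart.

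The 214 X peaks lay between 530687 and 22102866, a span of 21.6 Mb, and covered 114 kb. The lowest score was 6.79 and the highest 160.49, around a median of 21.66 and quartiles of 12.91 and 44.62. The lowest belonged to a peak of 201 bp at 16172010 to 16172210, which lay inside the stretch richest in high scores. A peak is called strong here when its score reached the upper quartile of the whole list, 33.04, a level that 25.1% of all peaks reached. On X, 77 peaks (36.0%; exact Clopper-Pearson 95% interval 29.6 to 42.8%, which covers counting error only and takes peaks as independent) were strong and 137 were weaker. Just inside this threshold, 2 X peaks scored 33.04, at 5454599 to 5454911 and at 7187352 to 7188139. Just outside it, 2 scored 31.85, at 18031301 to 18031768 and at 20122341 to 20123285.

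Strong peaks were concentrated on a few stretches of X. With X divided into bins of 1 Mb from its first base, the 3 bins with most strong peaks were those from 15 to 16 Mb, 16 to 17 Mb and 19 to 20 Mb. They held 12, 12 and 10 strong peaks, 34 of the 77 (44.2%). Of the 57 peaks in these bins, 59.6% were strong, against 27.4% of the 157 peaks elsewhere on X. The median score was 37.63 in the 3 bins and 17.45 outside them, and the median width was 540 bp and 471 bp. Scores and bins come from the same list, and the bins were picked for their strong peaks, so these contrasts describe them and test nothing.

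Outside the 3 richest bins, the 19 other complete bins held 2.26 ± 1.66 strong peaks each (SD over bins) and none held more than 6. The next richest were 11 to 12 Mb, with 6 strong among 14 peaks, and 13 to 14 Mb, with 5 strong among 13. Many peaks in a bin did not always mean many strong ones. From 7 to 8 Mb, 17 peaks included 4 strong ones and had a median score of 15.12, whereas from 19 to 20 Mb the same number of peaks included 10 strong ones and had a median of 34.27. From 8 to 9 Mb, 3 of 13 peaks were strong.

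Bins with at most 1 strong peak lay on both sides of the stretch from 15 to 20 Mb, and none lay within it. Of the 22 complete bins, 2 held no strong peak. These were the first bin, with 3 peaks of which the highest scored 27.97, and the bin from 3 to 4 Mb, with 5 peaks of which the highest scored 23.93. The incomplete last bin, beyond 22 Mb, held 1 peak, with a score of 11.24. A further 6 complete bins held 1 strong peak each. One of these, from 14 to 15 Mb, held a single peak in all, and that peak was strong, with a score of 107.1. No complete bin was without a peak.

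**Figure D1:**
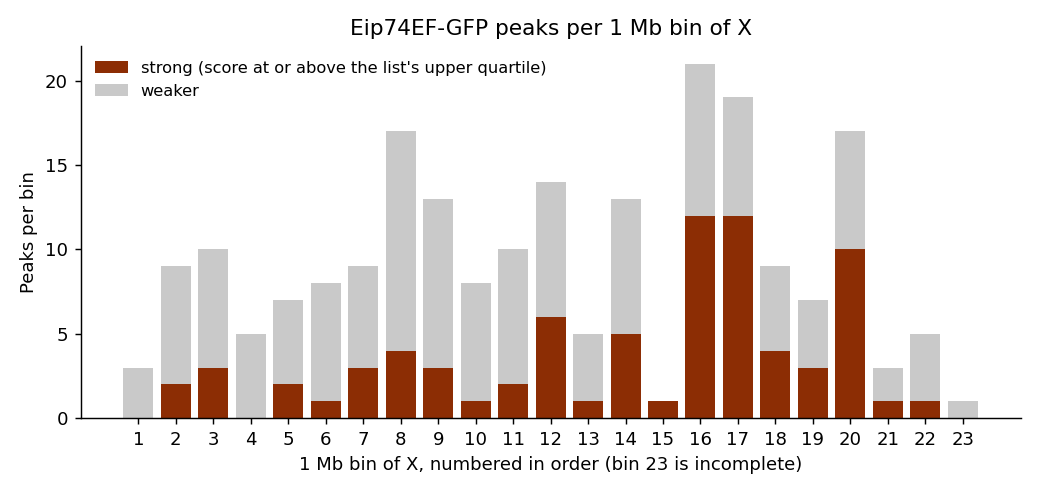
Number of Eip74EF-GFP peaks in each 1 Mb bin of X, with bins numbered in order along the chromosome. Dark parts are strong peaks and light parts are weaker ones; bins 16, 17 and 20 (15 to 17 Mb and 19 to 20 Mb) hold 12, 12 and 10 strong peaks, and the other bins hold 6 or fewer.

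A window of 1 Mb that was free to slide gave 1 outstanding stretch. From 15597792 to 16578249, a length of 980 kb, 22 of 34 peaks were strong, so that 15.9% of the X peaks and 28.6% of its strong peaks lay there. The stretch held 7 of the 15 highest-scoring X peaks. Of its 34 peaks, 13 were among the top 10% of the whole list (scores of 67.17 or more), which 16.8% of all X peaks and 10.0% of the whole list reached. The window was picked for its strong peaks, so its high scores and close spacing follow in part from that choice and test nothing. The median distance between neighbouring strong peaks inside it was 35.3 kb and the longest was 161 kb. When peaks with gaps of up to 10 kb were joined, 23 runs were left, the largest of 3 peaks. In the stretch 20 of the 34 peaks (58.8%) were in runs of 2 or more, against 43.9% on X as a whole, and 14 stood alone. High and low scores were mixed along it, from 148.72 down to 6.79. No strong peak lay just before this stretch: the 1120 kb in front of it, from 14477836 to 15597791, held 4 peaks, all with scores of 27.21 or less. After it, the next strong peaks scored 35.51 at 16862586 to 16862985 and 77.89 at 16970744 to 16971929.

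**Figure D2:**
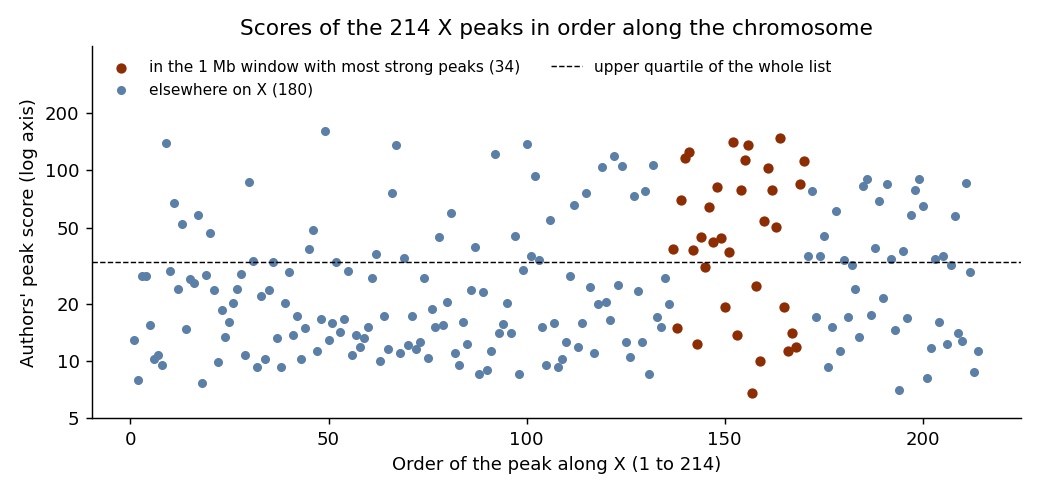
Score of each of the 214 X peaks (log axis) against its order along the chromosome; the dashed line is the upper quartile of the whole list. The 34 peaks of the richest 1 Mb window, in dark, include 22 above the line and reach from 6.79 to 148.72, while single high scores are scattered over the rest of X.

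In the third rich bin, from 19 to 20 Mb, the 10 strong peaks lay between 19172407 and 19760846. The highest, at 19531149 to 19532270, scored 89.73, and none was among the 15 highest on X. A run of 5 peaks within 4.04 kb supplied 3 of them. The 16 to 17 Mb bin, in contrast, drew on high scores: 9 of its 12 strong peaks were in the top 10% of the list, against 5 of 12 in the bin before it and 4 of 10 from 19 to 20 Mb.

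Peaks were also unevenly spaced. Neighbouring X peaks were a median of 30.8 kb apart (213 intervals, from the end of one peak to the start of the next). The longest interval, 831 kb, ran from 20123286 to 20954192, shortly beyond the third rich bin. The next were 718 kb from 11767391 to 12485327, 714 kb from 14477836 to 15192136, 621 kb from 1216629 to 1837295 and 587 kb from 13890336 to 14476970. The third and the fifth of these flanked the single peak of the bin from 14 to 15 Mb, at 14476971 to 14477835, which scored 107.1.

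Intervals between strong peaks had a median of 85.9 kb (76 intervals). The longest, 1790 kb from 2529015 to 4319027, held 9 weaker peaks with scores up to 28.73. It was followed, after a pair of strong peaks, by 1133 kb from 4321139 to 5454598 with 4 weaker peaks, and then by 1025 kb from 5454912 to 6479788 with 8. The other intervals among the 5 longest were 1193 kb from 19760847 to 20954192 and the 1120 kb before the richest stretch. From 2529015 to 6479788, therefore, 21 weaker peaks and 3 strong ones were called.

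Of the 15 highest-scoring X peaks, 7 lay in the 3 richest bins, all of them inside the richest stretch, and 8 lay elsewhere. The highest of all, 160.49, belonged to a 534 bp peak at 6746522 to 6747055, which ranked 19 in the whole list. Its only neighbour within 10 kb scored 12.84, and the nearest other strong peak was 263 kb away. The second, 148.72, lay in the richest stretch at 16446823 to 16447594 and stood alone, with no other peak within 10 kb. The third, 140.59 at 15880664 to 15881365, was the middle peak of a run of 3. The fourth, 139.91 at 1936055 to 1937177, lay near the distal end, 53.8 kb from the next strong peak.

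Of the other 11 peaks among the 15 highest, 5 belonged to the richest stretch and 6 lay outside it. Those inside were at 16110659 to 16111869 (score 136.29), 15693010 to 15693692 (124.12), 15689909 to 15690616 (115.82), 16042963 to 16043502 (113.93) and 16577728 to 16578249 (112.06). The peaks of 124.12 and 115.82 were a pair, with midpoints 3.09 kb apart, and the peak of 113.93 had a strong partner of 78.44 at 16041528 to 16042535, with midpoints 1.20 kb apart. Those outside were at 11002615 to 11003355 (137.91), 7956820 to 7958021 (136.57), 10201820 to 10203416 (121.87), 13151095 to 13152437 (118.35), 14476971 to 14477835 (107.1) and 13315103 to 13315550 (105.87). Among all 15, 6 were in runs and 9 stood alone, while 43.9% of all X peaks were in runs. High scores thus also occurred without another peak within 10 kb. Standing alone depends on that gap: the peaks of 137.91 and 148.72 had neighbours with midpoints 14.8 kb and 12.4 kb away.

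With gaps of up to 10 kb joined, the X peaks formed 157 runs. Single peaks made up 120 of them, 24 held 2 peaks, 8 held 3, 3 held 4 and 2 held 5, and no run was longer than 15.1 kb. Of the 37 runs of 2 or more, 12 held at least 2 strong peaks, 15 held 1 and 10 held none. Among the 57 pairs of neighbours within runs, both peaks were strong in 11, 1 was strong in 27 and neither was in 19. The scores of such neighbours were weakly related (Spearman's rho of 0.14 over 57 pairs, against 0.014 over the 156 pairs further apart; pairs share peaks and libraries, and no p is given). Strong peaks made up 42.6% of all peaks in runs, and with this share alone mixed pairs would outnumber pairs of strong ones. The counts thus show no preference for mixed pairs, and none was tested.

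The 5 runs of 4 or more peaks differed in make-up. The first, from 1988282 to 2003126, held 5 peaks over 14.8 kb in which strong and weaker ones alternated, with scores of 29.5, 67.13, 23.87, 52.62 and 14.74. The second, 14.6 kb from 7187352 to 7201971, opened with its only strong peak, 33.04, and went on with 14.25, 16.63 and 29.5. The third, 7.24 kb from 7950780 to 7958021, climbed toward its end, with 17.25, 11.5, 75.69 and 136.57. Its first peak was 1441 bp wide despite its low score.

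The fourth run, 7.80 kb from 11686617 to 11694414, had no strong peak, with scores of 9.25, 10.22, 12.57 and 27.97. The fifth, from 19389155 to 19393189, packed 5 peaks into 4.04 kb, of which they covered 69.5%, with scores of 85.18, 34.27, 14.54, 7 and 37.63. Across the 13 runs of 3 or more, the highest peak came first in 4, last in 4 and between in 5, so no end was favoured. None of these 5 runs lay in the richest stretch. Together they held 22 peaks, of which 8 were strong, a share close to that of X as a whole.

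**Figure D3:**
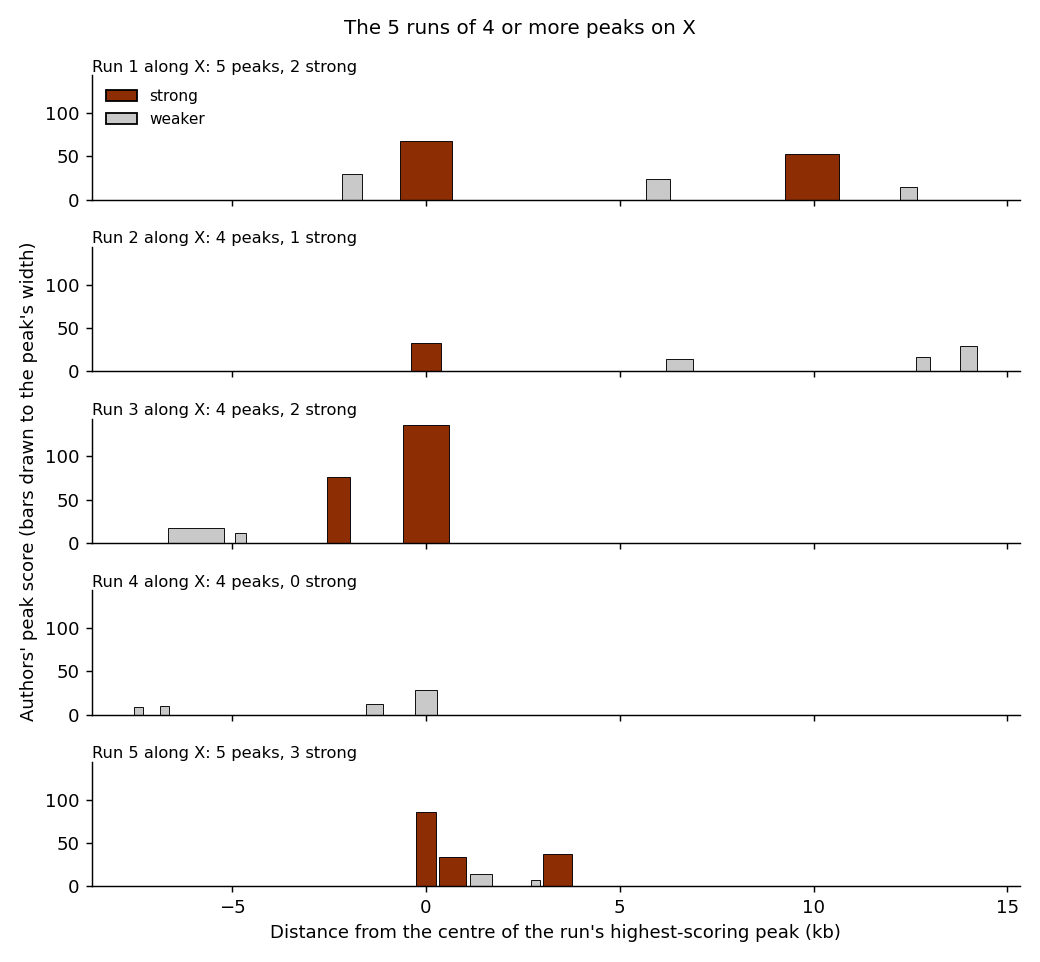
The 5 runs of 4 or more peaks on X, in order along the chromosome, with each peak drawn as a bar of its own width at its distance in kb from the centre of the highest peak of the run; bar height is the score. Dark bars are strong; run 4 has none, and run 3 holds the highest bar, 136.57.

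Peaks in runs did not differ steadily in score from single peaks. The 94 peaks in runs had a median score of 22.7 (quartiles 13.12 and 54.38) and the 120 single peaks one of 20.93 (12.8 and 35.51), a difference of 1.77. The difference was 4.945 with gaps of at most 20 kb and 9.995 after merging peaks within 1 kb first. It was -2.735 with gaps of at most 5 kb and -0.43 without the 3 richest bins, so its direction on X is not settled by this list. Strong peaks made up 42.6% of peaks in runs and 30.8% of single peaks. Peaks in runs had a median width of 527 bp, and single peaks one of 460.5 bp.

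Higher scores went with greater width on X. Spearman's rho was 0.67 over the 214 peaks, 0.34 among the strong and 0.45 among the weaker ones; width and score come from the same signal, and the values are descriptions. The median width was 658 bp for strong and 344 bp for weaker peaks. Of the 52 peaks under 300 bp, none was strong, and of the 16 peaks of 1000 bp or more, 13 were strong. The 5 widest were 2313 bp at 11029727 to 11032039 (score 93.28), 1597 bp at 10201820 to 10203416 (121.87), 1441 bp at 7950780 to 7952220 (17.25), 1381 bp at 1999716 to 2001096 (52.62) and 1375 bp at 19472173 to 19473547 (78.59).

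Exceptions went both ways. The 3 widest weaker peaks were the 1441 bp peak of the third run, a 1108 bp peak at 2030377 to 2031484 with a score of 25.73, and a 1086 bp peak at 21194373 to 21195458 with a score of 13.96. The narrowest strong peak, 313 bp, was the one at 5454599 that scored exactly at the threshold. In all, 11 strong peaks were narrower than the X median of 483 bp, and the 15 highest-scoring peaks ranged from 448 to 1597 bp with a median of 741 bp. The highest score on X thus sat on a peak of ordinary width.

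**Figure D4:**
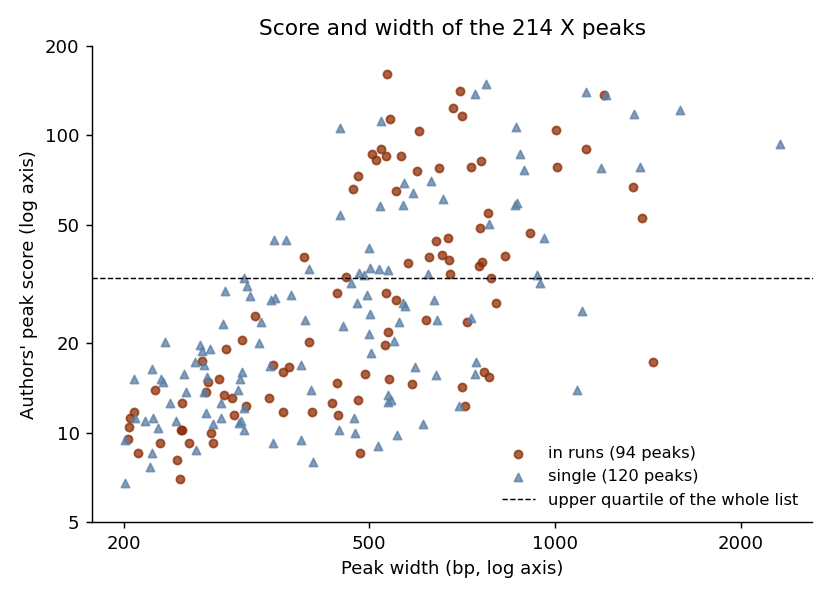
Score against width of the 214 X peaks, both on log axes, with circles for the 94 peaks in runs, triangles for the 120 single peaks and a dashed line at the upper quartile of the whole list. Score rises with width in both, and no peak under 300 bp lies above the line.

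Along the chromosome, scores differed more between segments than widths did. In segments of 5 Mb from the first base, the median score was 22.7 (34 peaks), 16.02 (55), 20.12 (43), 35.51 (73) and 13.96 (9), the last segment being incomplete. The share of strong peaks in these segments was 20.6%, 21.8%, 34.9%, 56.2% and 22.2%. The median widths were 519, 444, 448, 523 and 536 bp. Over the complete segments they had the same rank order as the median scores, within a narrower range. The incomplete last segment, with 9 peaks, joined the lowest median score to the greatest median width. The first segment joined a low share of strong peaks to a width close to that of the fourth. Over all peaks, Spearman's rho with position was 0.20 for score and 0.060 for width. Without the 3 richest bins it was 0.096 for score and -0.032 for width. Those bins were picked for their strong peaks and all lie in the fourth segment. The fall in rho for score thus follows in part from that choice and tests nothing.

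The same measures on 3 other long arms, 2L without its dense run of 84 peaks, 3L and 3R, give a scale for this unevenness. Arm 2R was not compared, so the place of X among all long arms is not given. The share of strong peaks was 36.0% on X, 26.0% on 2L, 20.6% on 3L and 24.7% on 3R. The variance of strong peaks per bin divided by their mean, a ratio near 1 where bins vary as independent events would, was 3.61 on X (3.50 ± 3.56 strong peaks, SD over 22 bins). It was 1.29 on 2L (3.09 ± 2.00, 22 bins), 0.777 on 3L (2.29 ± 1.33, 24 bins) and 1.33 on 3R (3.30 ± 2.09, 27 bins). The 3 richest bins held 44.2% of the strong peaks on X, 27.9% on 2L, 23.6% on 3L and 23.6% on 3R, counted over complete bins. A sliding window of 1 Mb held at most 22 strong peaks on X, against 8 on 2L, 6 on 3L and 9 on 3R.

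Counted over all peaks, the ratio of variance to mean was 3.02 on X, 1.85 on 2L, 2.12 on 3L and 3.79 on 3R. X was thus not the most uneven of the 4 arms by this measure. For weaker peaks, X had the lowest of the 4 values. Their ratio of variance to mean was 1.29 on X, against 2.00 on 2L, 2.36 on 3L and 3.28 on 3R, and X held 6.18 ± 2.82 weaker peaks per bin (SD over 22 bins). The 3 richest bins of each arm were then left out. The ratio for strong peaks became 1.22 on X, 0.918 on 2L, 0.650 on 3L and 1.00 on 3R. X thus stood nearer to these arms without the bins. The bins were picked for their counts of strong peaks, so a fall follows in part from that choice and tests nothing. The nearest other strong peak was a median of 35.3 kb away on X, 99.2 kb on 2L, 162 kb on 3L and 88.2 kb on 3R. With gaps of up to 10 kb, 43.9% of X peaks were in runs, against 56.6% on 2L, 51.8% on 3L and 52.2% on 3R. X was also lowest with gaps of up to 5 kb, at 35.5% against 47.0% on 2L, 44.1% on 3L and 44.1% on 3R. The same held after merging peaks within 1 kb first, at 30.9% against 40.3%, 36.8% and 35.9%. It was not lowest with gaps of up to 20 kb, where the shares were 61.7% on X, 68.7% on 2L, 59.9% on 3L and 65.3% on 3R. The largest run, with gaps of up to 10 kb, held 5 peaks on X, against 6 on 2L, 9 on 3L and 10 on 3R. The median score of peaks in runs minus single peaks was 1.77 on X, with a sign that changed with the settings. It was -6.745 on 2L, -2.45 on 3L and -3.84 on 3R, and stayed negative there with the other gaps and after merging. The list allows no test over samples, and differences between arms were not tested.

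**Figure D5:**
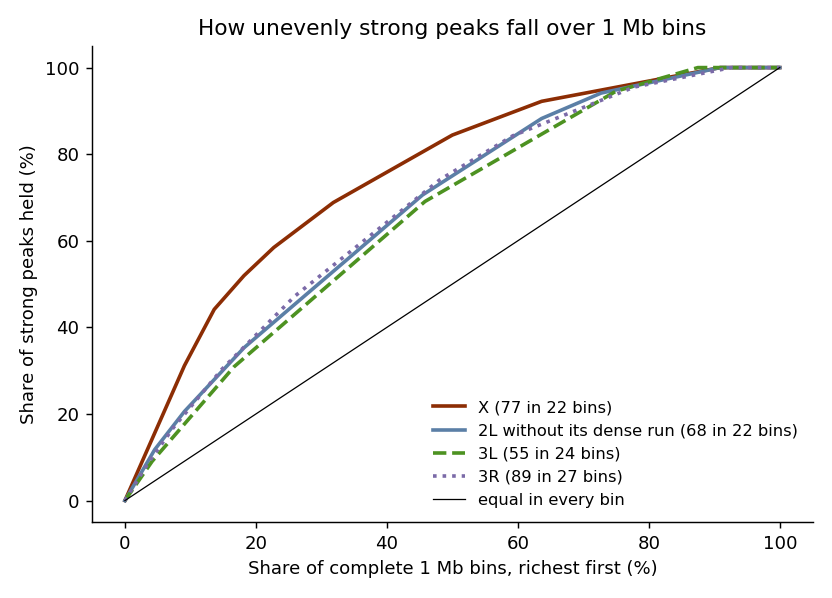
Cumulative share of strong peaks (y axis, %) held by the complete 1 Mb bins of an arm taken from the richest down (x axis, %), for X, 2L without its dense run, 3L and 3R; the straight line marks equal bins. The X line rises fastest: its 3 richest of 22 bins hold 44.2%, against 27.9% on 2L, 23.6% on 3L and 23.6% on 3R.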

How the data were processed

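The series comprised 4 libraries, 2 precipitated with an antibody against GFP and 2 of input DNA, from embryos cross-linked in 1.8% formaldehyde for 15 min, per the labels. The authors deposited 1 peak list. Per the file headers, it uses FlyBase release 5 and MACS called the peaks. The submitters' processing notes name CASAVA (1.7.0.2 and 1.7.0.3), BWA, MACS2 and BDGP5. The deposited score per peak has no stated scale, and the caller's settings, the threshold and any pooling of replicates are not stated in these sources.

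Peaks on X were taken by name and binned by midpoint. Runs joined peaks over gaps of at most 10 kb. The steps were tested on simulated peaks (Python 3.11.15, pandas 2.3.3, numpy 2.4.6, scipy 1.17.1). Named positions were the 15 highest and 5 widest X peaks, the 3 richest and the empty bins, runs of 4 or more peaks, the 5 longest stretches without peaks or strong peaks, peaks at the threshold and the lowest score. The widest weaker and narrowest strong peaks, the sliding window and the peaks named beside it were chosen after their values were seen. Members and measures were chosen with earlier results of these data known. The gene table at hand follows release 6, so peaks were not linked to genes, and sequence and motifs are not analysed here. Alternatives changed the bins, the threshold, the gap and merging.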

Additional observations from a re-analysis of the deposited data

How the results depend on the processing

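Of 29 alternatives over 9 results, 17 stayed close to the value reported (a count or ratio within 1.5 times, a share within its 95% interval, a correlation within 0.1). That interval covers counting error only and takes peaks as independent. The share of strong X peaks in the 3 richest bins counted as close throughout. It was 34.5% with the list median as the threshold and 52.8% with the top 10%. The count of strong X peaks was 36 with the top 10% of the list and 119 with its median as the threshold, and the bins with no strong peak numbered 8 and 0, as the threshold itself sets. The ratio of variance to mean of strong peaks per bin lay between 2.71 and 5.01 under 7 alternatives, 2 of them chosen after seeing the data, and was 1.22 without the 3 richest bins, also chosen after seeing the data. On 2L, 3L and 3R the same 7 alternatives gave 0.629 to 1.71. Merging peaks within 1 kb left 59 peaks in runs. The score of peaks in runs minus single peaks was 4.945 with gaps of at most 20 kb, 9.995 after merging within 1 kb, -2.735 with gaps of at most 5 kb and -0.43 without the 3 richest bins (chosen after seeing the data); the cause was not tested. Without these bins rho with position was 0.096 for score and -0.032 for width. No paired analysis was possible because scores are not given per library, and leaving out a replicate was likewise impossible. Depth is unknown and limits every value.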

Other observations

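Many X peaks shared their exact score, to 2 decimals, with another X peak. This held for 106 of the 214 (49.5%), which carried 150 distinct scores in all, and the commonest value, 15.12, belonged to 5 peaks. The share was 29.9% of 281 peaks on 2L without its dense run, 37.1% of 272 on 3L and 38.4% of 372 on 3R, although each of these arms held more peaks. On X the shared scores were found in 18 of 77 strong peaks (23.4%) and 88 of 137 weaker ones (64.2%).

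Over the 22 complete bins of X, which share libraries, the number of strong peaks was related to that of weaker ones (Spearman's rho of 0.63). The 3 bins richest in strong peaks nevertheless held 9, 7 and 7 weaker peaks, against a median of 7 over all 22 bins, and the bin with most weaker peaks, 13 from 7 to 8 Mb, held 4 strong ones. The same rho was 0.0049 on 2L without its dense run over 22 bins, 0.030 on 3L over 24 and 0.54 on 3R over 27. Differences between arms were not tested.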
